A study of Homo sapiens with 18 samples.

Results

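The sites described here are 715 peaks called for V5-tagged EHMT1 K450RK451R near the starts of protein-coding genes in LNCaP cells. LNCaP is a human prostate cancer cell line that responds to androgen. They were selected from 1 ChIP-seq peak list. A gained site is a peak of the K450RK451R V5 list, on chromosomes 1 to 22 or X, that shares no base with a peak of the other 3 V5 lists or of the 4 lists for dimethylated lysine 9 of histone H3 (H3K9me2). A gained site was kept when its summit, the base with the highest read pileup, was no more than 1 kb away from where a protein-coding gene starts. Of 14594 K450RK451R peaks on these chromosomes, 13494 were gained and 715 of these (5.30%) lay at a coding gene start. Of all 727 K450RK451R peaks at coding gene starts, 10 were dropped for a V5 peak of another line and a further 2 for an H3K9me2 peak.

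The 4 V5 groups and the 4 H3K9me2 groups came from LNCaP lines carrying a lentiviral, tetracycline-inducible V5-EHMT1 construct, encoding the wild type (WT) or a protein with lysine replaced by arginine at K450R, K451R or both positions (K450RK451R). All 4 lines were stable lines selected with puromycin and were given doxycycline at 0.5 µg/ml for 2 days. The 9th group was ChIP of endogenous EHMT1 in parental LNCaP cells without the construct. None of the 9 groups was an input, an IgG or an untagged V5 control. Each group had 2 samples and 1 deposited peak list, so none of the values below has a replicate error, and no removal of endogenous EHMT1 from the induced lines is described in the sources used here. The peak lists give no expression, so the identity of the cells could not be checked against their markers.

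EHMT1, also called GLP, forms a dimer with EHMT2 (G9a) that places methyl groups on lysine 9 of histone H3, a mark of silenced chromatin. One of the DNA-binding factors known to bring this enzyme to promoters is REST, which recognises the RE1 element and keeps neuronal genes silent outside neurons. Most human coding genes start in CpG islands, GC-rich stretches that hold GC boxes bound by SP and KLF factors. Alu elements, short interspersed repeats that descend from the 7SL RNA gene, are common between and within genes but rare directly at gene starts.

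Among the highest sites 2 kinds of sequence recurred, and they are shown first because the comparisons turn on them. The RE1 element was searched as 2 arms, TCAGCACC and GGACAGC, with 2 free bases between them, on both strands and with up to 3 mismatches over the 15 bases of the arms. The lines show 9 of the 38 elements found, each with 6 flanking bases on both sides, read from hg19 in the direction of the match, and capitals mark the bases that match an arm. The first 6 belong to the RE1 sites with the highest fold enrichment and the others to further sites with high EHMT1 enrichment.
RAB37: agcgttTCAGCACCagGaACAGCgactcc
XKR7: ccgccgTCAGCACCaaGGACAGCgtagcc
BARHL1: ggcccgTCAGCACCgtGGACAGCgcctcc
PRB2: acatctTCAGgACCacGGACAGCgctcat
CHGB: ggccggTCAGCACCgcGGACAGCgccagc
KRTAP4-6: ggagatgCAGCAgCtgGGACgGCagcagg
GLRA1: ggcgttTCAGCACCacGGAgAGCgtccag
PDE1C: cacgctTCAGCACCggGGACAGCtcctgc
GPR6: tcgcttTCAGCACCgcGGACAGCgtctct

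These elements lay at chr17:72667494-72667522 (minus strand), chr20:30556352-30556380 (plus), chr9:135457559-135457587 (minus), chr12:11653678-11653706 (plus), chr20:5892345-5892373 (plus), chr17:39296299-39296327 (plus), chr5:151304310-151304338 (plus), chr7:32467482-32467510 (plus) and chr6:110299887-110299915 (plus), in the order of the lines. The elements of XKR7, BARHL1, CHGB, PDE1C and GPR6 matched both arms without a mismatch. Those of RAB37, PRB2 and GLRA1 had 1 mismatch and that of KRTAP4-6 had 3. The windows of XKR7, BARHL1 and PRB2 held 2 elements each with up to 3 mismatches. The XKR7 stretch reaching 50 bases to each side of the summit, chr20:30556355-30556455 on the plus strand, is shown with the arms of both elements in capitals. It overlapped coding sequence.
XKR7: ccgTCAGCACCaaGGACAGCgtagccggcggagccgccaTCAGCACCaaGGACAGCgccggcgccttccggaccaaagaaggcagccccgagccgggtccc

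The other kind was sequence found many times in the genome. Stretches of the same length at the 2 repeat-holding sites with the highest fold enrichment are given on the plus strand for TAF11L13 (chr5:17631608-17631708) and PAXBP1 (chr21:34144193-34144293). Capitals mark bases inside a 25-base stretch that occurs at least 10 times in hg19, which here covered the whole stretch.
TAF11L13: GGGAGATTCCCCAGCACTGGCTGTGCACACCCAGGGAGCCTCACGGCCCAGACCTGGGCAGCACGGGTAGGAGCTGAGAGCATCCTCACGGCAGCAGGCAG
PAXBP1: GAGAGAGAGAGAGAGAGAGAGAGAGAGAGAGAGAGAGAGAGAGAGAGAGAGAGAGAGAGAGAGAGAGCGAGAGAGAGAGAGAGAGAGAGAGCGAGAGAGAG

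The PAXBP1 stretch was a run of GA pairs, 48 of them, and its most frequent 25-base stretch occurred 41566 times in the genome. The most frequent one at TAF11L13 occurred 15 times. A further high site, at FAH (chr15:80445471-80445571, plus strand), which encodes the last enzyme of tyrosine breakdown, held a tandem run of 5-base units, 9 of GGAGT and 2 of GGAAT, here in capitals.
FAH: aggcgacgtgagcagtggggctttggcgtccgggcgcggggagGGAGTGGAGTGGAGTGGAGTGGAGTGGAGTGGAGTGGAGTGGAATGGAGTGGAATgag

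The 715 sites marked 772 of 20098 protein-coding genes, which is 3.84% of them when every gene start within 1 kb of a summit is counted. Their summits lay closest to 684 different genes. For 84 sites 2 or more coding starts were within reach, and 47 of these sites (6.57% of all) lay at a divergent pair, that is, a start on the minus strand with a start on the plus strand after it. At most genes there was 1 site, and 38 genes held 2 or more. The 6 gene models with 3 sites, NOTCH2NLA, NOTCH2NLB, NOTCH2NLC, NOTCH2NLR, NBPF10 and ENSG00000286185, are mapped to nearly the same start on chromosome 1 in this build and shared the same 3 peaks.

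The summits lay mostly just downstream of the annotated gene start. That start is the outermost one annotated for each gene, so other transcripts can start downstream of it. Positions relative to transcript starts are not given here. The median position was 159 bp downstream, with quartiles at -78.5 and 392 bp, where negative values are upstream. Downstream or at the start were 478 sites (66.9%) and upstream 237, and 540 sites (75.5%) lay within 0.5 kb. By place in coding-gene annotation, 203 summits fell in introns, 169 in untranslated exon sequence, 122 in coding exons, 18 in other exons and 203 outside coding genes. The 75 sites with repeated sequence differed in position: 44 of them (58.7%) lay upstream of the start, against 193 of the other 640 (30.2%).

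**Figure D1:**
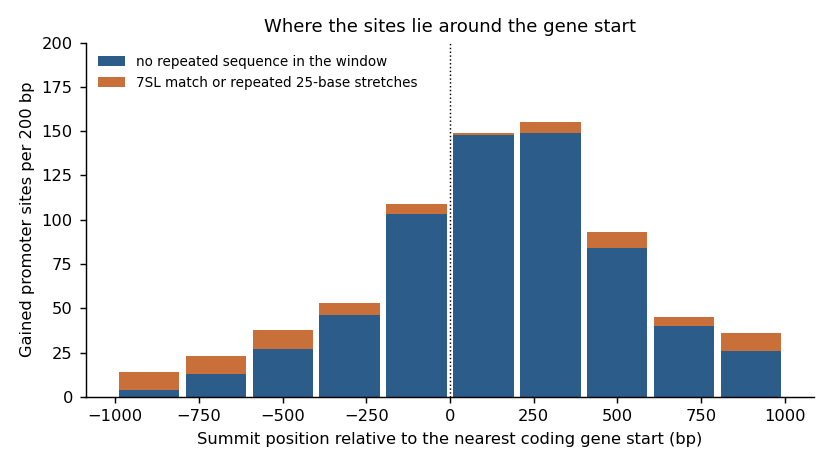
Number of gained promoter sites in bins of 200 bp by the position of the summit relative to the nearest coding gene start, with repeat-holding sites stacked on top. The bins from 0 to 200 and from 200 to 400 bp downstream held the most sites, 149 and 155, and the bin farthest upstream held 14, of which 10 were repeat-holding.

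Fold enrichment, the summit pileup plus 1 divided by the local background plus 1, and the p-values and q-values of the peak caller chose these sites, so they are given as a description only. Fold enrichment ran from 2.47 to 12.8 with a median of 4.81 and quartiles of 4.35 and 5.38. The other 12779 gained sites had a median of 4.89. The −log10 q had a median of 2.79, and 57 of the 715 sites reached 5. Solving the pileup from fold enrichment and −log10 p gave a median of 9 fragments at the summit, with quartiles of 8 and 10, and 450 sites rested on 9 fragments or fewer.

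The estimated depth of the lists differed, and that bears on what counts as gained. The background of the K450RK451R V5 list corresponds to about 22.7 M reads (M, mega) and that of the WT V5 list to about 8.83 M. Each background was the most frequent solved value of its list. It was shared by 5780 of 14799 K450RK451R peaks but by only 9 of 652 WT peaks, so the WT estimate is weak. The lowest −log10 p was 3.99 in the K450RK451R list and 6.57 in the WT list. Of the 715 sites, 342 (47.8%) had a −log10 p at or above the lowest value of the WT list, and the share among the other gained sites was 51.5%. A −log10 p does not compare directly between lists of different depth. Whether any of the 715 sites also had signal in the WT line below its cutoff was not tested. At the 1 kb limit itself, the last 3 sites inside were at RAD21L1 (983 bp, fold 3.96), NUTM2E (996 bp, 4.15) and ENSG00000266076 (1000 bp, 6.42). The first 3 outside were at INKA1 (1002 bp, 3.51), CELSR3 (1003 bp, 4.73) and METTL9 (1012 bp, 4.02).

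The site with the highest fold enrichment was at TAF11L13, 539 bp upstream of the start (chr5:17631563-17631721), with a fold of 12.8 and 31 fragments over a background of 1.5. Next came RAB37, a small GTPase of secretory granules, with a fold of 10.5 and 21 fragments at 843 bp downstream (chr17:72667473-72667698). The site at PAXBP1 (fold 9.09) was the GA run shown above. At UTP20, which is needed to process ribosomal RNA, the fold was 8.99 at 117 bp downstream (chr12:101673921-101674180), and at PIP4P2, a phosphatase of phosphoinositides, it was 8.70. XKR7 (8.14), BARHL1 (7.85), a homeobox factor of the nervous system, and PRB2 (7.63), which encodes a salivary proline-rich protein, all held RE1 elements. FAH (7.76) held the tandem units shown above, and FKSG68 (7.61) was also repeat-holding. The next 3 sites, at CTAGE6, FAM111A and RAB3C, were tied at 7.07 with 12 fragments each. FAM111A encodes a protease that protects replication forks, and RAB3C a small GTPase of synaptic vesicles. Of these 13 sites, 3 carried repeated sequence by the measure used here, 4 an RE1 element, and CTAGE6 had no stretch of 51 bases that is unique in the genome.

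**Figure D2:**
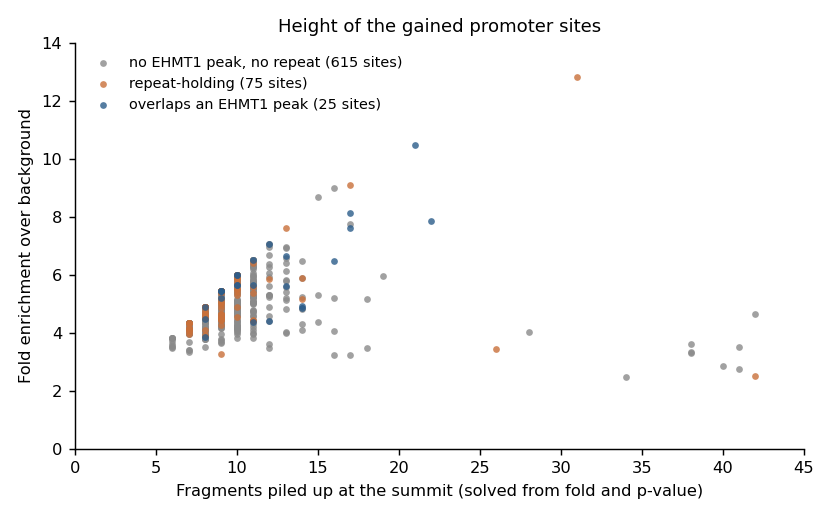
Fold enrichment against the number of fragments piled up at the summit for each of the 715 sites, with repeat-holding sites and sites that overlap an endogenous EHMT1 peak marked. Most sites lie between 6 and 12 fragments, and of the 14 sites with 20 fragments or more, 11 stand over a background of more than 2 fragments and have a fold under 5.

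Sites with many fragments were mostly in multi-copy genes. Of the 14 sites with at least 20 fragments, 10 held no stretch of 51 bases, the read length, that occurs once in the genome. The TAF11L genes, copies related to the gene of a TFIID subunit that lie in tandem on chromosome 5, were picked out after their values were seen. Of 12 TAF11L coding genes in the annotation, 8 held a gained promoter site, between chr5:17518436 and chr5:17631721. Their fragments ran from 31 to 42, their backgrounds from 1.5 to 14.2 and their folds from 2.47 to 12.8, with a median of 3.41. At 7 of the 8 sites no 51-base stretch was unique, so reads from the copies cannot be told apart. REXO1L1 had 2 such sites (28 and 26 fragments), and DUX4, the double homeobox gene of a repeated array, had 42 fragments over a background of 16.2. Of the 4 sites with unique stretches, TAF11L13 had few, and RAB37 (21 fragments), BARHL1 (22) and ANKRD30BL (38 over a background of 10.6) had windows in which all stretches were unique.

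Endogenous EHMT1, whose list the selection did not use directly, was found at 25 of the 715 sites (3.50%, 95% Wilson interval 2.38 to 5.11) and at 112 of the other 12779 gained sites (0.876%, 0.729 to 1.05). Over all gained sites the share was 1.02%. The difference of 2.62 percentage points had an adjusted p of 4.89e-08 (two-sided Fisher's exact test, Benjamini-Hochberg over 3 tests). Sites are not replicates, so this test covers counting error within these lists and not the variation between samples. The difference did not hold among sites without repeats: all 25 sites were free of repeated sequence, and among sites without it 25 of 640 (3.91%) stood against 90 of 2672 (3.37%), which differ by 0.54 points with an adjusted p of 0.473. Seen from the EHMT1 list, 25 of its 74 peaks at coding starts (33.8%) overlapped one of the gained promoter sites, and 36 overlapped any K450RK451R V5 peak, while of all 1626 EHMT1 peaks on these chromosomes 991 (60.9%) did so. With sites under H3K9me2 peaks allowed as gained, the difference was 1.58 points (25 of 717 against 250 of 13104). The gained rule itself bears on this comparison. In all, 137 gained sites overlapped an EHMT1 peak, while 991 EHMT1 peaks overlapped a K450RK451R peak before the rule. At coding starts these counts were 25 and 36. The rule thus removed a larger part of the EHMT1 overlap away from coding starts. Before the rule the K450RK451R list held 727 peaks at coding starts and 14594 in all on these chromosomes. The difference and its p-value describe gained sites only and are not given as support for a trait of promoter sites. Shares before the rule were not tested.

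The 25 sites with EHMT1 included 5 genes of the REST list described further on, CHGB, CHRNB2, CRH, GLRA1 and SCG3. The highest EHMT1 fold enrichment was 14.7 at PRB2, followed by 13.8 at GLRA1, a subunit of the glycine receptor, 12.5 at SCG3, a granin of secretory granules, 12.4 at BARHL1, and 12.02 at PDE1C, a calmodulin-dependent phosphodiesterase. ANK1, a membrane-skeleton protein, had 11.6, XKR7 10.8 and GPR6, an orphan receptor of the brain, 8.98. In the V5 list the same 8 sites had folds of 7.63, 5.43, 5.18, 7.85, 4.89, 5.62, 8.14 and 5.63, respectively. At 21 of the 25 sites the EHMT1 fold was above the V5 fold, in lists of different estimated depth. The V5 fold of the 25 had a median of 5.63 and a range of 3.86 to 10.5, against a median of 4.80 for the other sites, and GC content had the same median of 67.7% in both. Further sites with EHMT1 included the metabotropic glutamate receptor gene GRM2 (V5 fold 4.85, EHMT1 fold 8.03), the corticotropin-releasing hormone gene CRH (5.64 and 7.92), the synaptic adhesion gene SLITRK1 (6.52 and 7.14) and the potassium channel gene KCNH4 (4.92 and 6.44).

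The windows, here and in the following, reach 100 bp to each side of a summit. An RE1 element was present in the windows of 38 of the 715 sites (5.31%, 3.9 to 7.2) and of 182 of the other 12779 gained sites (1.42%, 1.23 to 1.65). The difference of 3.89 points had an adjusted p of 1.31e-10 in the same test, and without repeat-holding sites it was 1.17 points (36 of 640 against 119 of 2672) with an adjusted p of 0.423. The share was 1.59% in windows of the same length at all coding gene starts and 0.63% in windows 1 kb to each side of the 715 summits. An element without a mismatch was found at 10 sites, with 1 mismatch at 5, with 2 at 4 and with 3 at 19. EHMT1 was found at 7 of the 10, 3 of the 5, 1 of the 4 and 0 of the 19 sites, respectively. Together, 11 of the 38 sites with an element (28.9%) overlapped an EHMT1 peak, and 14 of the 677 sites without one (2.07%). Among other gained sites with an element 33 of 182 (18.1%) did so. The elements with up to 2 mismatches had a median distance of 39 bp from the summit, and those with 3 mismatches 61 bp. Of the 6 lines printed for their V5 fold, those of RAB37, XKR7, BARHL1, PRB2 and CHGB come from EHMT1 sites. The 3-mismatch element of KRTAP4-6 lies in coding sequence without an EHMT1 peak. The lines of GLRA1, PDE1C and GPR6 were printed for their EHMT1 enrichment, so their overlap was set by that choice. Elements not printed include those of AKAIN1, C3orf14 and ENSG00000273025 without a mismatch, and of MMP24 and VGF with 1 mismatch. None of these had an EHMT1 peak.

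Alu-type sequence, a match of at least 50 bases at 75% identity or more to the 7SL RNA gene RN7SL2, was found at 51 of the 715 sites (7.13%, 5.47 to 9.26) and at 6807 of the other 12779 gained sites (53.3%, 52.4 to 54.1). The difference of -46.1 points had an adjusted p of 1.09e-147 (two-sided Fisher's exact test). The rule placed the 715 sites near coding starts, where Alu elements are rare, and so largely set this direction in advance. The test is therefore given as a description and not as support for a trait of the sites. At all coding gene starts the share was 0.811%, so that gained promoter windows lay between the coding starts and the other gained sites. A median copy number of at least 10 for the 25-base stretches of a window was found at 68 sites (9.51%), against 76.7% of other gained sites and 1.25% of coding starts. Either measure held at 75 sites, the repeat-holding sites, and at 79.1% of other gained sites. All 151 stretches of 51 bases were unique in 549 windows (76.8%) but in 1533 of the other gained windows, and none was unique in 46 windows (6.43%) and 16.6%. Examples of Alu-type sites were ZNF155 and ZNF221, zinc finger genes on chromosome 19, with a fold of 5.98 each, and ELOVL5, a fatty acid elongase, with 5.88. With a required match of 80 bases, 6 of 715 sites and 315 of 12779 remained, and the difference was -1.63 points.

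**Figure D3:**
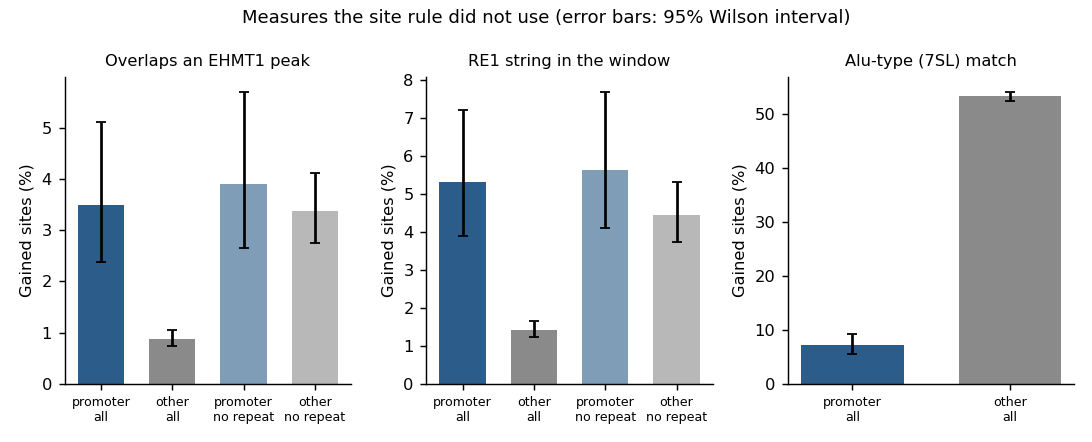
Share of gained sites that overlap an endogenous EHMT1 peak, hold an RE1 element or hold an Alu-type match, at coding promoters and elsewhere, with 95% Wilson intervals. For EHMT1 and RE1 the shares are also drawn without repeat-holding sites, where they were 3.91% against 3.37% and 5.63% against 4.45%.

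The windows were rich in G and C. Median GC content of the windows was 67.7%, with quartiles of 61.7% and 72.1%. The median was 63.2% at all coding gene starts, 56.7% at the other gained sites and 43.3% in windows 1 kb to each side. Without repeat-holding sites the medians were 68.2% at promoters and 59.2% elsewhere, and at the 75 repeat-holding promoter sites 57.2%. The observed over expected ratio of CpG had a median of 0.79, against 0.75 at all coding starts and 0.52 at other gained sites. Windows with at least 50% GC and a CpG ratio of at least 0.6, as in CpG islands, numbered 554 (77.5%), against 58.9% of coding starts and 36.2% of other gained windows. The coding starts are centred on the start itself and the gained windows on the summit, so position differs between these sets.

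The GC box GGGCGG, searched on both strands, was the commonest string. It was present in 354 of 715 windows (49.5%, 45.9 to 53.2), in 10.4% of windows 1 kb away and in 46.7% of windows at coding starts. The CCAAT box bound by NF-Y was in 12.4% of the windows (10.2 to 15.1), below both the windows 1 kb away (27.7%) and the coding starts (25.9%). TATAAA was in 1.68%, against 14.7% and 7.12%. Among factors of housekeeping promoters, the ETS string CCGGAAGT was in 2.66% of windows, 0.42% of windows 1 kb away and 4.49% of coding starts. In the same order, the YY1 string AAGATGGC was in 1.54%, 0.63% and 3.0%, the NRF1 string GCATGCGC in 1.40%, 0.35% and 2.99%, and the CREB string TGACGTCA in 0.699%, 0.14% and 1.87%. The MYC string CACGTG was in 3.78%, 2.87% and 5.88%. An E2F string, either TTTCCCGC or TTTGGCGC, was in 11 windows (1.54%, 0.861 to 2.73), against 1.33% of windows 1 kb away and 1.79% of coding starts. The MEF2 string CTAAAAATA, which is also part of the Alu sequence, was in 27 windows, of which 26 were repeat-holding. Strings for BANP (8 windows), ZNF143 and SREBF1 (2 each), GCM1 and HINFP (1 each) were rare. The shares were not adjusted for GC content or for position relative to the gene start, which differ between these sets. A string is a description of letters in the window and not a bound site.

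**Figure D4:**
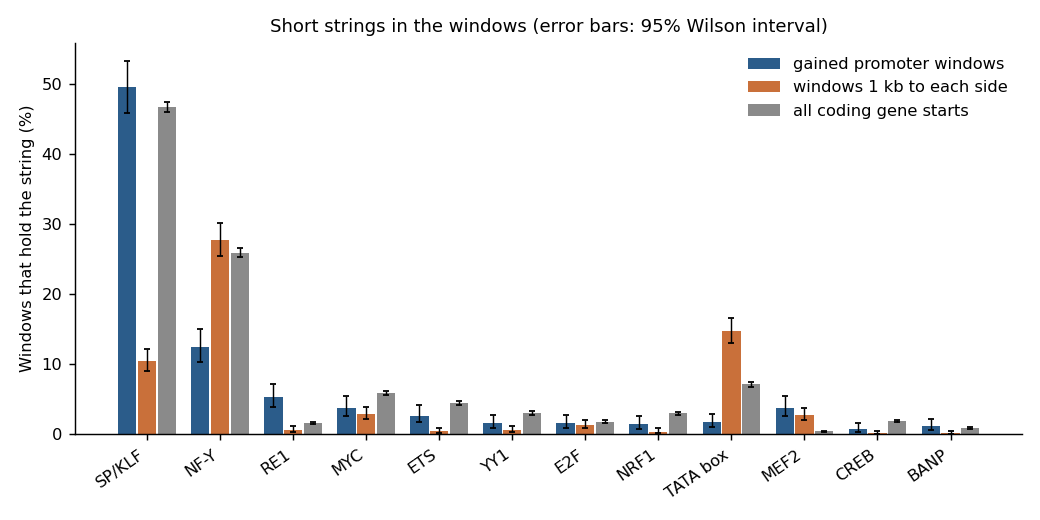
Share of windows, 100 bp to each side of the centre, that hold each string at the 715 gained promoter summits, in windows 1 kb to each side and at all coding gene starts, with 95% Wilson intervals. GC boxes are in 49.5% of the windows at the sites and 46.7% at coding starts, with overlapping intervals. CCAAT and TATA strings are less frequent at the sites than in both other sets, which differ from the sites in GC content and position.

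Genes of the REST and neuroendocrine lists carried sites most often among the hand-written lists. Against 3.84% of all coding genes, 10 of 30 REST targets (33.3%) held a gained promoter site: ADCYAP1, CHGB, CHRNB2, CRH, GLRA1, NEFL, SCG3, SYP, UNC13A and VGF. Of these 10 genes, 5 had an EHMT1 peak at the site, 5 an RE1 element and 0 repeated sequence, and V5 folds ran from 3.83 to 5.98 with a median of 5.21. Of 30 neuroendocrine genes, 8 (26.7%) held a site: CHGB, CHRNB2, RAB3C, SCG3, SCG5, SRRM3, SYP and VGF. The 2 lists share 5 of these genes, and the lists were written with earlier results of these data known, so the counts are not independent evidence.

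At granin and other genes of the REST and neuroendocrine lists, the measures coincided at some sites and not at others. CHGB (chromogranin B) had a site 140 bp downstream of its start (chr20:5892214-5892444) with a V5 fold of 5.98, 10 fragments, an RE1 element without a mismatch and an EHMT1 fold of 5.58. SCG3 had a V5 fold of 5.18, 9 fragments and an EHMT1 fold of 12.5 at 135 bp upstream (chr15:51973427-51973643), with no RE1 element in the window. VGF, a neuropeptide precursor, had an element with 1 mismatch and a V5 fold of 3.83 over a background of 2.13 fragments, with no EHMT1 peak. At SCG5, a chaperone of the granules, the site was 786 bp downstream, had a fold of 4.10 and 7 fragments, and lay in Alu-type sequence with a median of 758 copies. SYP, which encodes synaptophysin of synaptic vesicles, had a fold of 5.94 and an element with 2 mismatches, and SRRM3, a neuronal splicing regulator, had a V5 fold of 6.46 and an EHMT1 fold of 6.83.

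The other hand-written lists lay closer to the background of 3.84%. Of 30 E2F targets 0 held a site, and 0 of 30 allows a share of up to 10.0%. Of 30 MYC targets 2 did, UTP20 and NOLC1 (4.32). Of 29 genes for H3K9 methylation and REST complexes 1 did, the H3K9 demethylase KDM3A, with a fold of 5.98 at 848 bp downstream. Of 36 cyclins and CDKs 2 did, CCNG2 (4.72) and CCNK (4.64). Of 6 further genes looked up by name, HTR5A, PPP1R14C, STXBP3, LIPT2, FRMPD2 and MCM7, 2 held a site. LIPT2, a lipoyl transferase, had a site 187 bp downstream (chr11:74204501-74204660, fold 6.57, 13 fragments) that also lies within 1 kb of the start of POLD3, and STXBP3, which controls vesicle fusion, had a site 155 bp upstream (chr1:109289094-109289214, fold 5.45, 11 fragments). Neither overlapped an EHMT1 peak or held an RE1 element.

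The share of coding genes with a site differed between chromosomes. It was 7.90% on chromosome 8, 6.39% on chromosome 18, 5.68% on chromosome 7 and 5.45% on chromosome 1, which held 108 sites. It was 0.222% on chromosome 22, where 1 of 450 genes held a site, 1.05% on chromosome 16, 1.28% on chromosome 19 and 1.61% on chromosome X. The other gained sites, per megabase, were also sparse on chromosomes 22 (2.09), 16 (2.69) and X (2.54), against 4.97 on chromosome 1. They were sparse on chromosome 13 as well (2.62), where the share of genes with a site was 3.42%. Median GC content at coding starts was 65.9% on chromosome 22 and 62.2% on chromosome 1. It did not follow the shares elsewhere, with 67.2% on chromosome 18, 64.2% on chromosome 8 and 61.2% on chromosome X.

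**Figure D5:**
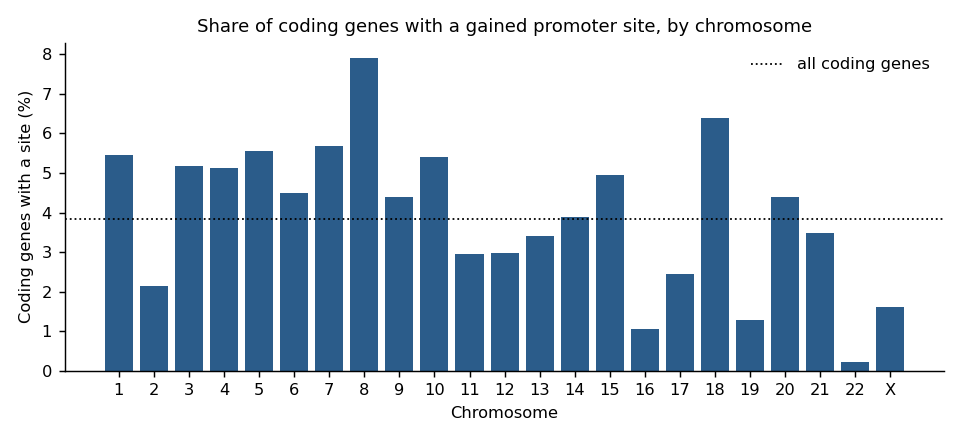
Share of coding genes with a gained promoter site on each chromosome, with the share over all coding genes, 3.84%, as a dotted line. Chromosome 8 is highest at 7.90% and chromosome 22 lowest at 0.222%.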

How the data were processed

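ChIP-seq peak lists of 9 groups (18 samples, 2 per group) were analysed. Per the study's methods and the submitters' processing notes, the authors sequenced 51-nt single-end reads, checked them with FastQC 0.11.9, mapped them to hg19 with BWA 0.7.9a and SAMtools 1.2, and called peaks with MACS2 2.1.0. Each deposited list gives a fold enrichment, a ratio of the summit pileup to the background with 1 added to both (inferred from the values), with −log10 p-values and −log10 q-values and the summit offset. Whether replicates were pooled is not given in the sources used here, so no result has a replicate error and intervals cover counting error only.

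Coding gene starts came from GENCODE version 44 mapped to hg19 (20098 gene lines on chromosomes 1 to 22 and X). Peaks sharing at least 1 bp were counted as overlapping. Pileup and background were solved from fold enrichment and −log10 p within 0.0005, for 100% of the peaks of every list. Reads were estimated from the genome background, taken as the most frequent solved value, with 100-bp extension and 2.7 Gb. Windows of 100 bp to each side of the summits were compared with RN7SL2 by blastn 2.17.0 (word size 7), since the annotation used holds no RN7SL1, the gene planned. Stretches of 25 and 51 bases were counted over hg19 in either orientation. The 3 comparisons of promoter with other gained sites used two-sided Fisher's exact tests (scipy 1.17.1, Python 3.11.15) with Benjamini-Hochberg adjustment (statsmodels 0.14.6), at 0.05. The scripts were tested on simulated data.

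The members, gene lists and strings were chosen with earlier results of these data known. Named sites are the 12 with the highest fold (13 with ties), the 8 with the highest EHMT1 fold, the 6 highest RE1 sites, the 3 highest repeat-holding sites, genes with 2 or more sites, members of the hand-written lists, 6 further genes chosen by name, 3 sites on each side of the 1 kb limit and up to 3 sites per symbol family. Other genes named with EHMT1 sites were chosen after their values were seen. Some genes and sequences, and the lists that need them, are not reported here.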

Additional observations from a re-analysis of the deposited data

How the results depend on the processing

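No paired analysis was possible because the 2 replicates of a group have a common list and no values of their own, and for the same reason no replicate could be left out. The main limit was the cutoff of the K450RK451R list: of 715 sites and 772 genes, 57 sites and 63 genes had a −log10 q of at least 5, 270 and 306 a fold enrichment of at least 5, and 342 and 387 a −log10 p of at least the lowest of the WT V5 list. Under the other 8 settings the counts ran from 540 to 965 sites and from 585 to 1001 genes. Median GC was 64.2% under the q cutoff, 66.2% within 2 kb, 66.2% with the starts of all coding transcripts, 68.3% in windows of 50 bp and 65.6% in windows of 200 bp to each side, and between 66.7% and 68.2% under the other 8 settings.

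An alternative chosen after seeing the data, leaving out repeat-holding sites, took both the EHMT1 difference (0.54 points, adjusted p = 0.473) and the RE1 difference (1.17 points, adjusted p = 0.423) to the other side of the threshold of Fisher's exact test. Under the other settings the EHMT1 difference ran from 1.44 points, without sites that hold an RE1 element, also chosen after seeing the data, to 8.78 points under the q cutoff, with adjusted p up to 0.0179. All settings kept the rule against peaks of the other V5 lists, which bears on this difference. The RE1 difference ran from 1.45 points in windows of 50 bp to each side to 6.87 points at a fold of at least 5, with adjusted p up to 0.0185. The Alu-type difference, whose direction the position rule largely set, kept its direction and its call in all 13 settings. It ran from -50.1 to -1.63 points, with adjusted p up to 0.00335.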

Other observations

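Families grouped by gene symbol differed in how many members held a gained promoter site, beside 3.84% of all coding genes. Respiratory complex genes held sites at 11 of 111 (9.91%, where NDUFC2 and NDUFC2-KCTD14 are models of the same locus), among them NDUFS4 of complex I (fold 6.52), ATP5PB of ATP synthase (5.98, at a start shared with WDR77) and SDHAF3, an assembly factor of complex II (5.98). Keratin-associated protein genes held sites at 8 of 94 (8.51%), with KRTAP9-4 at 6.52, KRTAP2-4 at 5.98 and KRTAP4-6 at 5.98. Of the 151 stretches of 51 bases in a window, 106, 2 and 125 were unique at these sites, respectively. At KRTAP12-2 all 151 were unique. Reads from similar copies can therefore be mixed at some of these genes. DEAD and DEAH helicases had 4 of 53 (7.55%), with DHX36, which unwinds G-quadruplexes, at 6.52 and DHX29 at 6.19. Protocadherins had 4 of 65 (6.15%), RNA polymerase genes 2 of 33 (POLR3B, 6.07, and POLR3C, 4.89), and ubiquitin conjugation genes 18 of 333 (5.41%). Zinc finger genes were near the background, with 22 of 608 (3.62%). Solute carriers had 10 of 373 and transmembrane genes 7 of 239. Olfactory receptor genes had 2 of 415 (0.482%), and 0 of 84 ribosomal protein, 0 of 71 spliceosome and 0 of 39 homeobox cluster genes held a site. With 0 sites, shares of up to 3.57%, 4.23% and 7.69% are allowed. These shares are descriptions with no test.

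Among genes with 2 sites in unique or nearly unique sequence, the peaks lay on both sides of the start at RTTN (folds 6.97 upstream and 5.50 downstream), ATP5F1E (4.89 at 441 bp upstream and 5.43 at 152 bp downstream), DR1 (5.32 at 175 bp upstream and 4.81 at 92 bp downstream), HOMER1 (4.41 at 323 bp upstream and 3.94 at 412 bp downstream) and C3orf14 (4.89 at 124 bp upstream and 4.35 at 457 bp downstream). The downstream site of C3orf14 held an RE1 element without a mismatch. At GRM7, a metabotropic glutamate receptor gene, both sites (5.43 and 4.35) lay upstream in repeated sequence, with median copy numbers of 461 and 1588.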
